A study of Mus musculus with 6 samples.

Results

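The genes described here encode the machinery that carries cargo along cilia: the intraflagellar transport (IFT) complexes, their motors, and the BBSome. They were chosen by gene symbol, as the 13 Ift and 8 Bbs symbols in the deposited tables together with 16 named motor, WD-repeat and TPR genes; the rule uses no measured value. This gave 37 members of 23420 genes in all. The RNA came from the embryonic mouse tissue (C57BL/6, E14.5) that would form the anterior hard palate. The mutants, titled KO by the submitters, had the genotype Shox2Cre/-;Nkx2.5F/F. The controls, titled WT, were Shox2Cre/+;Nkx2.5F/F. Both groups thus carried the Cre allele at Shox2 and floxed Nkx2-5 on both chromosomes, and the controls were not wild type. Each group had 3 libraries, and whether a library is 1 embryo or a pool is not stated, so p-values measure only the spread between these libraries. The comparison asks how loss of Shox2, a homeobox factor of the anterior palate, changes the transcripts of this tissue.

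Cilia are built from their tip, and proteins travel there on trains of IFT complexes. The IFT-B complex moves outward with kinesin motors, and the IFT-A complex and a cytoplasmic dynein serve the way back. The BBSome rides on these trains and sorts membrane proteins. Most mesenchymal and epithelial cells of the embryo carry a solitary primary cilium, which hedgehog signalling needs, whereas multiciliated cells of the airway build many motile cilia.

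Depth ran from 52668242 to 53331397 counts per library in the mutants and from 81950407 to 134813429 in the controls, so depth and genotype coincide. Mutant replicate 1 differed from the other libraries in that 99.7% of its counts from 5 to 50 were even and 63.6% to 73% in the other libraries; what this does to the results was not tested beyond leaving the library out. Shox2 itself had 5.3, 4.12 and 3.13 CPM (read counts scaled to library size, with TMM factors) in the mutants, against 88.2, 68.2 and 81.7 CPM in the controls, in accord with the labels. Nkx2-5 had 0 counts over the mutants and 12 over the controls. All 9 palatal mesenchyme markers were detected in both groups, with a sum of 12400, 11300 and 11000 CPM in the mutants and 7070, 16100 and 13800 CPM in the controls. Collagen genes made up most of this sum. In the test described below, 3 of the 9 fell and none rose, where 21.7% of all tested genes were called lower. Among the 3 was Msx1, with 20.5, 27.2 and 24.9 CPM in the mutants, against 117, 88.3 and 98.6 CPM in the controls.

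Transport genes were mostly more abundant in the mutant palate. Of the 37 members, all of which passed the filter on low counts, 27 rose, 3 fell and 7 did not pass the test (edgeR quasi-likelihood test, adjusted p under 0.05 over all genes). Over the 16604 genes tested, 24.1% were called higher and 21.7% lower, 45.8% in all. The median log2 fold change was 0.47 over the members and 0 over all genes. Before rounding, 4 members (Ttc30b, Traf3ip1, Dync2h1 and Wdr19) rose by 2-fold or more, 12 by 1.5-fold to under 2-fold and 11 by less. Ift88, which rounds to 2-fold, was just under it. Rises above 2-fold were no rarer over all genes: 2600 of the 16604 tested had one, called or not, against 4 of the 37 members. The groups did not overlap for 29 members that were higher in the mutants and 3 that were lower, where 29.7% and 29.2% of all tested genes behaved so, 58.9% in all. The summed level of the 37 members was 1920, 2180 and 2050 CPM in the mutants, against 1450, 1460 and 1480 CPM in the controls. In bulk tissue, more cells of a type and more RNA per cell cannot be told apart.

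Members were well measured, with at least 176 counts in every library. The coefficient of variation over 3 libraries had a median of 8% in the mutants and 5.5% in the controls. Mutant replicate 1 held the lowest mutant level for 28 of the 37 members and for 22 of the 27 that rose. Even there the members that rose lay above every control.

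**Figure D1:**
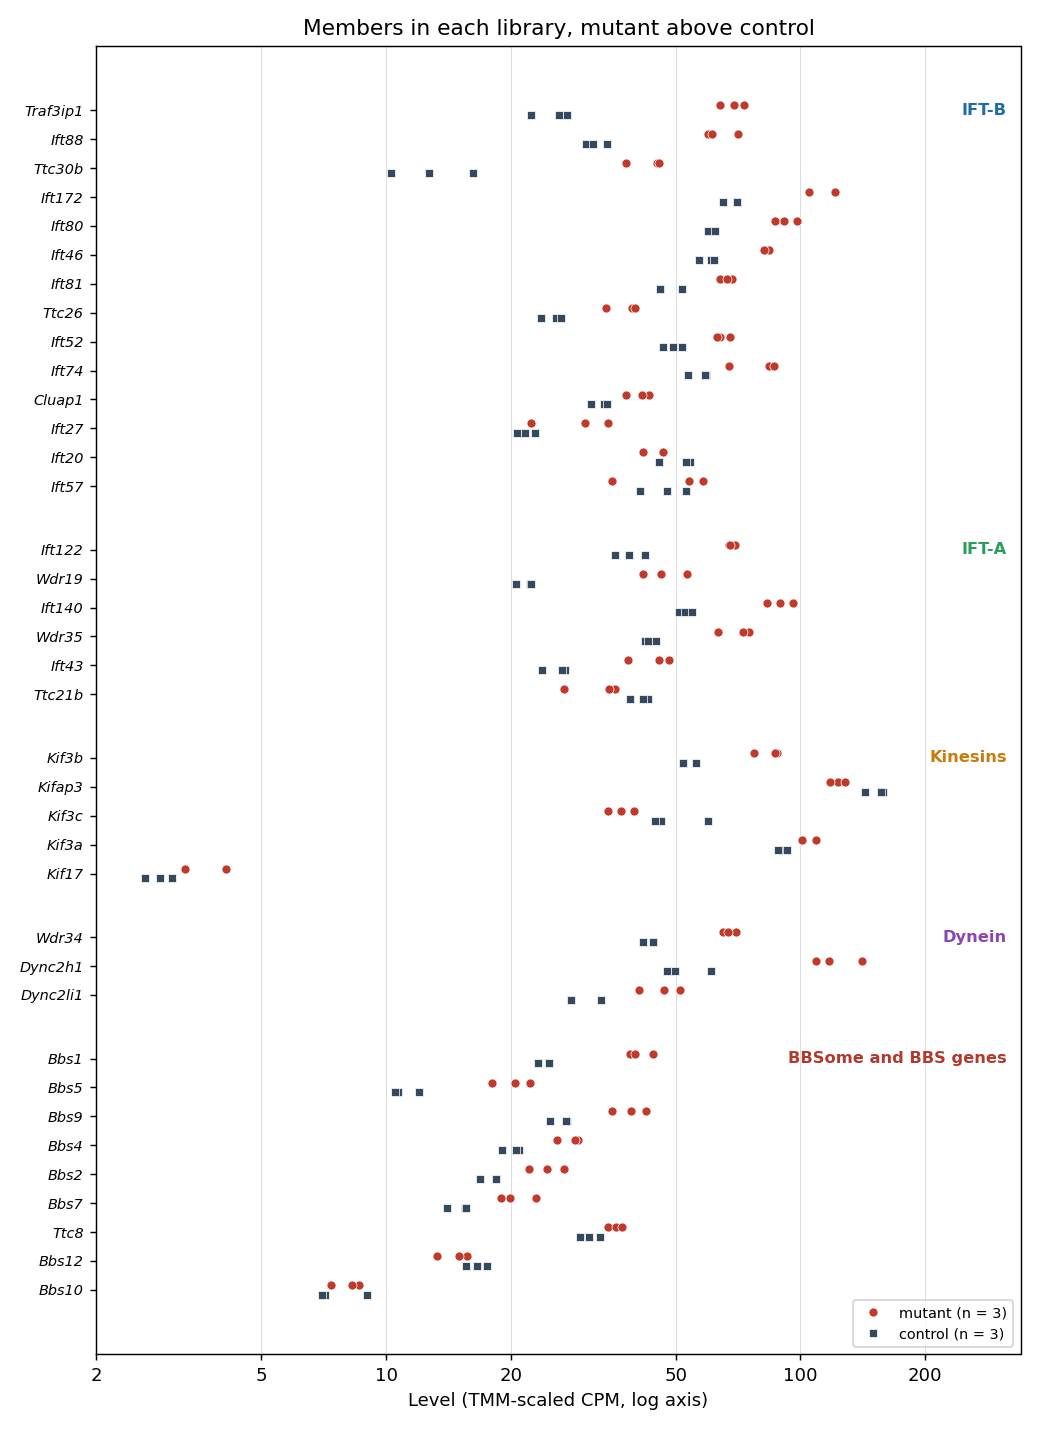
Level of each member (TMM-scaled CPM, log axis) in each library, grouped by role, with the 3 mutant libraries as circles above the 3 control libraries as squares. For 29 members all mutant points lie to the right of all control points, and for Ttc21b, Kifap3 and Kif3c they lie to the left.

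IFT-B, the complex of outward transport, held the 2 largest rises of all members, those of Ttc30b and Traf3ip1. Of its 14 members, 11 rose and 3 did not pass, with a median log2 fold change of 0.47. Ttc30b, which encodes the IFT70 subunit (chr2:75935849-75938585, GRCm38, minus strand), had 37.9, 45.2 and 45.6 CPM in the mutants, against 10.3, 12.7 and 16.2 CPM in the controls. Every mutant library was more than 2-fold above every control, a rise of 1.71 on the log2 scale (SE 0.17, edgeR adjusted p = 0.000479). Of its 50-base stretches, 25.8% also occur in Ttc30a1 and 30.1% in Ttc30a2, so reads may have been split among the copies. Ttc30a1 averaged 18.2 ± 1.48 CPM in the mutants and 14 ± 1.95 CPM in the controls (SD, n = 3 each) and did not pass (log2 fold change 0.38, SE 0.14, adjusted p = 0.0584).

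Traf3ip1, the gene of the microtubule-binding IFT54 subunit (chr1:91494647-91529307, plus strand), had 64.1, 69.3 and 73.1 CPM in the mutants, against 22.4, 26.1 and 27.3 CPM in the controls. The groups lay far apart, and the rise was 1.44 on the log2 scale (SE 0.1, edgeR adjusted p = 0.000229), the smallest p among the members. Ift88, whose loss is known to prevent cilium formation in the mouse, had 59.9, 70.9 and 61.1 CPM in the mutants, against 30.4, 31.6 and 34.1 CPM in the controls. It averaged 64 ± 6 CPM in the mutants and 32 ± 1.87 CPM in the controls (log2 fold change 1, SE 0.09, adjusted p = 0.000371). Ift172, the largest IFT-B protein, had 121, 121 and 105 CPM in the mutants, against 65.1, 70.5 and 70.2 CPM in the controls. It rose by 0.76 on the log2 scale (SE 0.08, adjusted p = 0.000506).

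Smaller rises were seen for Ift80 (log2 fold change 0.59, SE 0.07), Ttc26 (0.58, SE 0.1), Ift46 (0.47, SE 0.06), Ift81 (0.47, SE 0.07), Ift74 (0.47, SE 0.11) and Ift52 (0.4, SE 0.07). Ift81 and Ift74 together form the tubulin-binding module of the train. Ift80 lies 1.91 Mb from Shox2 on chromosome 3. Cluap1, the IFT38 subunit, had the smallest rise of the complex, with 40.9 ± 2.61 CPM in the mutants and 33 ± 1.49 CPM in the controls (log2 fold change 0.31, SE 0.08, adjusted p = 0.0184). Its call was lost without mutant replicate 2 (adjusted p = 0.0694), mutant replicate 3 (0.0569) or control replicate 2 (0.0544). Its fold change was -0.05 after an uncentred GC and length correction, and other genes annotated on the same or opposite strand cover 22.4% and 16.1% of its exon bases.

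The 3 IFT-B members that did not pass were Ift20, Ift27 and Ift57. Ift20, which also works at the Golgi apparatus, had 41.8, 46.6 and 46.5 CPM in the mutants, against 45.6, 54.3 and 53 CPM in the controls. The groups overlapped, and the log2 fold change was -0.18 (SE 0.09, adjusted p = 0.146). It was called lower without control replicate 1 (-0.27, adjusted p = 0.0331) and after GC and length correction (-0.36 centred, -0.6 uncentred). Ift57 had 35.1, 58.1 and 53.9 CPM in the mutants, against 41.1, 53.1 and 47.7 CPM in the controls, with mutant replicate 1 low and a log2 fold change of 0.05 (SE 0.19, adjusted p = 0.847). Ift27, a small GTPase subunit, had 22.4, 34.4 and 30.2 CPM in the mutants, against 20.7, 22.9 and 21.7 CPM in the controls. Here too mutant replicate 1 was the low one: the log2 fold change was 0.41 (SE 0.16, adjusted p = 0.0664), and 0.57 without that library (adjusted p = 0.00661).

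IFT-A, the complex that serves return transport and the entry of membrane proteins, rose in 5 of its 6 members, with a median log2 fold change of 0.77. Wdr19, the IFT144 subunit (chr5:65199696-65260415, plus strand), had 41.6, 53.4 and 46.2 CPM in the mutants, against 22.3, 20.6 and 22.4 CPM in the controls. The groups were well apart (log2 fold change 1.11, SE 0.11, adjusted p = 0.000432). Ift122 had 67.3, 69.6 and 67.8 CPM in the mutants, against 35.7, 38.5 and 42.1 CPM in the controls (0.82, SE 0.08, adjusted p = 0.000416). Ift140 had 82.9, 96.1 and 89.4 CPM in the mutants, against 51, 52.8 and 54.9 CPM in the controls (0.76, SE 0.07, adjusted p = 0.000446). All 3 encode the core of the complex, and in each the groups were well separated. Wdr35, the IFT121 subunit, had 63.4, 75.3 and 72.8 CPM in the mutants, against 42.2, 43 and 44.8 CPM in the controls (0.7, SE 0.08, adjusted p = 0.000755). Ift43 rose by 0.77 (SE 0.11, adjusted p = 0.00151).

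The sixth IFT-A gene went the other way. Ttc21b, the peripheral IFT139 subunit, had 26.9, 35.7 and 34.6 CPM in the mutants, against 43, 38.7 and 41.8 CPM in the controls. Every mutant lay below every control, with a log2 fold change of -0.34 (SE 0.12), but the adjusted p of 0.0499 was just inside the threshold. The call was lost whichever library was left out, with adjusted p from 0.052 to 0.119, and under most other settings.

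Among the motor genes of the member rule, the dynein genes rose and the kinesin genes were divided. All 3 dynein members rose. Dync2h1, the heavy chain that produces the force (chr9:6928503-7184446, minus strand), had 109, 141 and 117 CPM in the mutants, against 60.7, 47.6 and 49.9 CPM in the controls. Every mutant lay above every control (log2 fold change 1.22, SE 0.13, adjusted p = 0.000537). Wdr34, an intermediate chain, had 64.9, 70.1 and 66.9 CPM in the mutants, against 41.7, 44.2 and 44.2 CPM in the controls (0.63, SE 0.07, adjusted p = 0.000501). Dync2li1, the light intermediate chain, had 40.7, 51.1 and 46.9 CPM in the mutants, against 28, 27.9 and 33.1 CPM in the controls (0.64, SE 0.11, adjusted p = 0.00385). The summed level of these 3 members was 236 ± 24.2 CPM in the mutants and 126 ± 5.52 CPM in the controls (SD, n = 3 each). Dynein chain genes outside the rule were mixed. Dynlrb2 (log2 fold change 3.72, SE 0.64) and Wdr60 (0.48, SE 0.08) rose. Dynlrb1 (-0.51, SE 0.1) and Dynll1 (-0.38, SE 0.13) fell, and Tctex1d2 (0.44, SE 0.16) did not pass.

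Of the 5 kinesin genes, 2 rose, 2 fell and 1 did not pass, and their sum was 352 ± 14.9 CPM in the mutants and 350 ± 18.4 CPM in the controls. Kif3b, the usual partner of the Kif3a motor subunit, had 77.5, 88 and 87 CPM in the mutants, against 56, 52 and 52.2 CPM in the controls (log2 fold change 0.66, SE 0.07, adjusted p = 0.000674). Kif3c, the alternative partner that is prominent in neurons, had 34.3, 39.7 and 36.9 CPM in the mutants, against 59.8, 46.2 and 44.5 CPM in the controls (-0.44, SE 0.13, adjusted p = 0.0254). The paralogs thus moved in opposite directions, and the ratio of Kif3b to Kif3c per kilobase was 2.97, 2.91 and 3.1 in the mutants, against 1.23, 1.48 and 1.54 in the controls. Neuronal markers were lower in the same libraries, with a sum over 7 neuron and glia genes of 35.9 to 57.1 CPM in the mutants and 67.3 to 130 CPM in the controls, none of them at 0. Their part in the Kif3c difference was not tested. The antisense gene 1110002L01Rik covers 35.3% of the Kif3c exon bases. It had 6.07, 6.18 and 5.96 CPM in the mutants, against 6.61, 5.18 and 6.13 CPM in the controls (log2 fold change 0.02, SE 0.16), and its part in the Kif3c counts cannot be told apart without the strand setting. The Kif3c call was lost without mutant replicate 1 (adjusted p = 0.0693) or 3 (0.0711).

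Kifap3, the cargo-binding subunit of the same kinesin, had 123, 128 and 118 CPM in the mutants, against 158, 157 and 143 CPM in the controls. It fell by 0.31 on the log2 scale (SE 0.07, adjusted p = 0.00855), and this call held with each library left out. Kif3a had 101, 109 and 101 CPM in the mutants, against 91.3, 93 and 88.3 CPM in the controls, a small separation (0.19, SE 0.06, adjusted p = 0.0408). Its call was lost without mutant replicate 2 or 3 or any single control (adjusted p from 0.0699 to 0.148), and its fold change was -0.05 after the uncentred GC and length correction. Kif17, a separate kinesin that associates with the trains, was the least abundant member, with 4.11, 4.11 and 3.28 CPM in the mutants, against 2.62, 2.85 and 3.04 CPM in the controls. Its groups did not overlap, but it did not pass (0.43, SE 0.2, adjusted p = 0.112).

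Most BBSome genes of the member rule rose as well. Of its 7 core subunit genes, 6 rose, and its 2 chaperonin-like genes that help assemble the complex did not pass. Bbs1, the subunit that binds the membrane-recruiting GTPase, had 38.9, 44.1 and 39.8 CPM in the mutants, against 23.3, 24.8 and 24.7 CPM in the controls (log2 fold change 0.75, SE 0.08, adjusted p = 0.000635). Bbs5, a lipid-binding subunit, had 18, 22.3 and 20.5 CPM in the mutants, against 10.7, 10.5 and 12 CPM in the controls (0.87, SE 0.13, adjusted p = 0.00168). Both were clear of the controls in every library. Bbs9 had 35.2, 42.4 and 39 CPM in the mutants, against 27.3, 24.9 and 27.2 CPM in the controls (0.55, SE 0.1, adjusted p = 0.00334). Bbs4 had 25.9, 29.1 and 28.6 CPM in the mutants, against 20.9, 19 and 20.6 CPM in the controls (0.47, SE 0.09, adjusted p = 0.00632). Bbs2 (0.45, SE 0.11) and Bbs7 (0.45, SE 0.12) rose as well, but leaving out replicate 2 of the mutants (adjusted p = 0.0651) or of the controls (0.0664) ended the Bbs7 call. Ttc8, the remaining core subunit of the rule, did not pass (0.2, SE 0.08, adjusted p = 0.075), although its groups did not overlap. Bbip1, a BBSome gene outside the rule, fell (-0.37, SE 0.11, edgeR adjusted p = 0.0269).

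Neither chaperonin-like gene of the rule passed the test, and in both the groups overlapped. Bbs10 averaged 8.08 ± 0.645 CPM in the mutants and 7.72 ± 1.13 CPM in the controls (log2 fold change 0.07, SE 0.16, adjusted p = 0.759). Bbs12 averaged 14.6 ± 1.25 CPM in the mutants and 16.5 ± 0.948 CPM in the controls (-0.18, SE 0.12, adjusted p = 0.252). Mkks, a chaperonin-like gene outside the rule, fell (-0.6, SE 0.11, edgeR adjusted p = 0.00371). It had 20.9, 25.1 and 26.1 CPM in the mutants, against 38.3, 34.7 and 36.3 CPM in the controls.

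**Figure D2:**
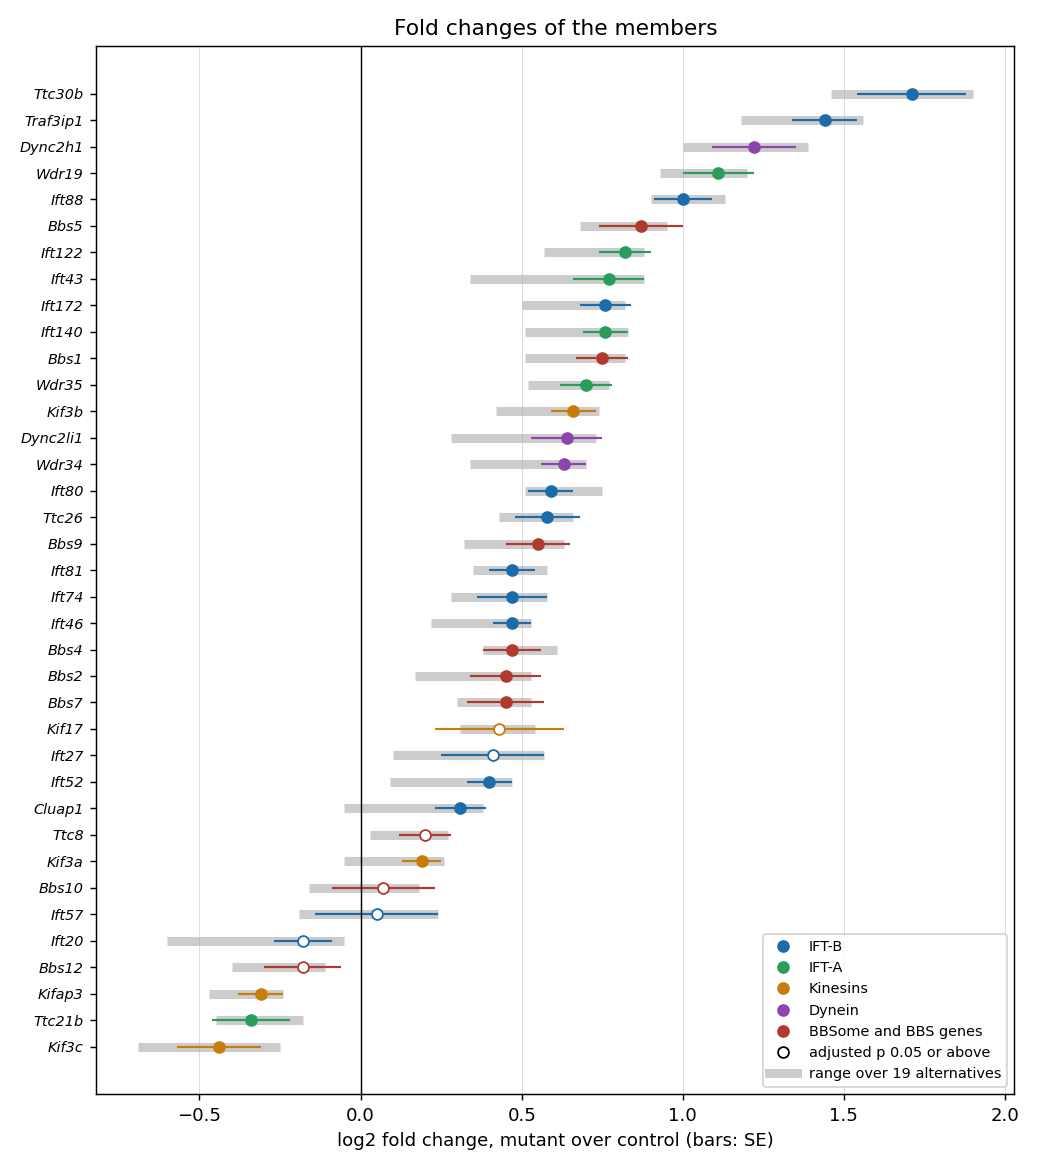
Log2 fold change of each member, mutant over control, with its SE, coloured by role; open points have an adjusted p of 0.05 or above, and grey bars span 19 alternative settings. Ttc30b (1.71), Traf3ip1 (1.44), Dync2h1 (1.22) and Wdr19 (1.11) lead, and Kif3c (-0.44), Ttc21b (-0.34) and Kifap3 (-0.31) are at the lower end.

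Per kilobase of annotated exon (RPKM), the members ranged widely in the same tissue. In the controls Kifap3 (38.1 ± 2.12 RPKM), Ift20 (33.4 ± 3.1 RPKM) and Kif3a (25.3 ± 0.672 RPKM) were the most abundant, and Wdr19 (1.93 ± 0.0907 RPKM) and Kif17 (0.62 ± 0.0457 RPKM) the least. Kifap3 averaged above Ift20 there, and Kif17 stood below every other member. In the mutants Kifap3 (30.7 ± 1.15 RPKM), Ift74 (29.8 ± 3.98 RPKM), Ift20 (29.5 ± 1.79 RPKM), Kif3a (28.9 ± 1.36 RPKM) and Wdr34 (28.5 ± 1.12 RPKM) led, neighbours in this order lying within their spread. Of the summed CPM of the members, the kinesin genes held 17.2% ± 0.46 in the mutants and 24% ± 1.5 in the controls, and the dynein genes 11.5% ± 0.44 in the mutants and 8.6% ± 0.4 in the controls (SD, n = 3 each).

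Promoters of the members were inspected for the X-box, the motif that RFX transcription factors bind and that is known from many ciliary genes. RefSeq windows from 250 bases before to 50 after the start (GRCm38.p6) were at hand for 32 of the 37 members. A strict form, GTTNCC and GGNAAC with NN between them, on either strand, occurred in 2 members (6.25%), against 0.53% of 27025 genes with a window. A loose form that contains it, GTNNCC and NGNNAC with NN between them, on either strand, occurred in 7 members (21.9%), against 5.26% of all genes. The half-site GTTGCC on either strand, which can lie inside the longer forms, occurred in 15 members (46.9%), against 14.1% of all genes. Member windows were also richer in G and C, with a median of 58.8% against 52.7% over all windows. These matches are descriptions of letters, not of binding. The stretches below are shown because they hold the full match in Ttc26 and Bbs7 (strict), the loose match in Wdr19, which rose, and in Ift57, which did not pass, and a half-site in Traf3ip1 and Ift140. They are upstream sequence, 5′ to 3′, with the matched letters in capitals; for Ttc26 only 30 bases around the site are given.
Ttc26, chr6:38381483-38381512, plus strand: ccggcggcGTTGCCGTGGAAACggagctcg
Bbs7, chr3:36613478-36613539, minus strand: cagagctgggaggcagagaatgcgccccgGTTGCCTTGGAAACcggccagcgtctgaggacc
Wdr19, chr5:65199546-65199695, plus strand: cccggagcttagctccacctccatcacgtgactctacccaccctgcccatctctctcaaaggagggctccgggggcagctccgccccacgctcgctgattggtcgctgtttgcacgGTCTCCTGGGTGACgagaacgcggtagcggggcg
Ift57, chr16:49699144-49699232, plus strand: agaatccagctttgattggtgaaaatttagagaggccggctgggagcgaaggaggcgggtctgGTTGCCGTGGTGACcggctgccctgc
Traf3ip1, chr1:91494518-91494646, plus strand: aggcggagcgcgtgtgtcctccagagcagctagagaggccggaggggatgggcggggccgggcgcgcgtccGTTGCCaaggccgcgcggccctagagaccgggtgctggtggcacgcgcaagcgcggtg
Ift140, chr17:25015936-25016084, plus strand: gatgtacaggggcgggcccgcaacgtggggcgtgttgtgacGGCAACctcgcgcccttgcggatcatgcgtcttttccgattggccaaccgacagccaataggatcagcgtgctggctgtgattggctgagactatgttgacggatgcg

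The strict match lay at positions -33 to -20 from the RefSeq start in Ttc26, where the GENCODE transcript already begins upstream, and at -121 to -108 in Bbs7. The loose form was also found downstream of the RefSeq start in Dync2h1, Bbs1 and Bbs4; the GENCODE gene of Dync2h1 begins farther upstream than this window. Of the 7 members with the loose form, 6 rose and Ift57 did not pass, where 27 of all 37 members rose. A link between the motif and the rises was not tested. RFX genes themselves were measured as a list: 3 of 6 tested rose and 3 did not pass, where 24.1% of all tested genes were called higher. Rfx2 averaged 43 ± 2.74 CPM in the mutants and 14.8 ± 1.09 CPM in the controls (log2 fold change 1.54, SE 0.1, adjusted p = 0.000193). Rfx3, known in the mouse for ciliary gene control, averaged 55.6 ± 8.67 CPM in the mutants and 25.6 ± 1.06 CPM in the controls (1.12, SE 0.12, adjusted p = 0.00054). Rfx5, an immune regulator, rose by 0.25 (SE 0.08, adjusted p = 0.0317). The list's count of rises was 2 with any single library left out except mutant replicate 3, and 2 with the replicate block.

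Transport genes outside the member rule were more mixed. Of 20 such genes, 6 rose, 6 fell and 8 did not pass, with a median log2 fold change of 0.19. Over all genes tested, 24.1% were called higher and 21.7% lower. With libraries scaled by size only, 10 of the 20 were called higher, where 27% of all genes tested were. Mak, a ciliary kinase, rose by 3.17 (SE 0.25), and Wdr60, a dynein intermediate chain, by 0.48 (SE 0.08). Tulp3, an adaptor that links IFT-A to membrane receptors, rose by 0.47 (SE 0.07). Arl3, a GTPase that releases lipidated cargo in the cilium, fell (-0.73, SE 0.08, adjusted p = 0.000613). Rabl5, the older symbol of the IFT-B gene Ift22 and singled out after its values were seen, had 23.5, 40.8 and 34.7 CPM in the mutants, against 21.2, 24.6 and 23.4 CPM in the controls, and did not pass (0.52, SE 0.19, adjusted p = 0.062).

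Genes of the transition zone, the gate at the base of the cilium, were mostly higher in the mutants. Of 19 genes, 15 rose and 4 did not pass, with a median log2 fold change of 0.73. Over all genes tested, 24.1% were called higher and 21.7% lower. The count called higher was 11 after the uncentred GC and length correction or with the Y-linked covariate, and 9 in the test against a 1.5-fold change. DESeq2 called 1 lower, edgeR called 1 lower without control replicate 1, and 2 were lower after the uncentred correction. Nphp4 rose most clearly, by 2.01 (SE 0.13, adjusted p = 0.000189), followed by Tmem231 (1.17, SE 0.08), Tctn2 (1.23, SE 0.08) and Tmem67 (1.38, SE 0.11).

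Genes of motile cilia had larger fold changes than the members. For each count in this paragraph, the share of all tested genes called higher was 24.1%. All 36 tested genes of the motile axoneme rose, with a median log2 fold change of 3.91, against 0.47 for the members. The least abundant of them in the controls had 23 counts over these libraries, so it passed the filter through the mutants. The summed level of the axoneme genes was 1630, 2210 and 1870 CPM in the mutants, against 95.2, 157 and 220 CPM in the controls. Mutant replicate 1 was thus lowest and mutant replicate 2 highest, as for the member sum. All 7 tested markers of multiciliated cells rose, and none was at 0 in either group. Their sum was 783, 668 and 636 CPM in the mutants, against 80.9, 148 and 237 CPM in the controls, with mutant replicate 1 highest. Foxj1, the master regulator of motile cilia, had 313, 303 and 297 CPM in the mutants, against 20.7, 64.7 and 105 CPM in the controls (2.26, SE 0.5, adjusted p = 0.00906). All 13 epithelial genes rose too, with a sum of 5870, 5590 and 6310 CPM in the mutants, against 1810, 1080 and 1790 CPM in the controls. The part of these cell types in the rise of the transport genes was not tested.

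**Figure D3:**
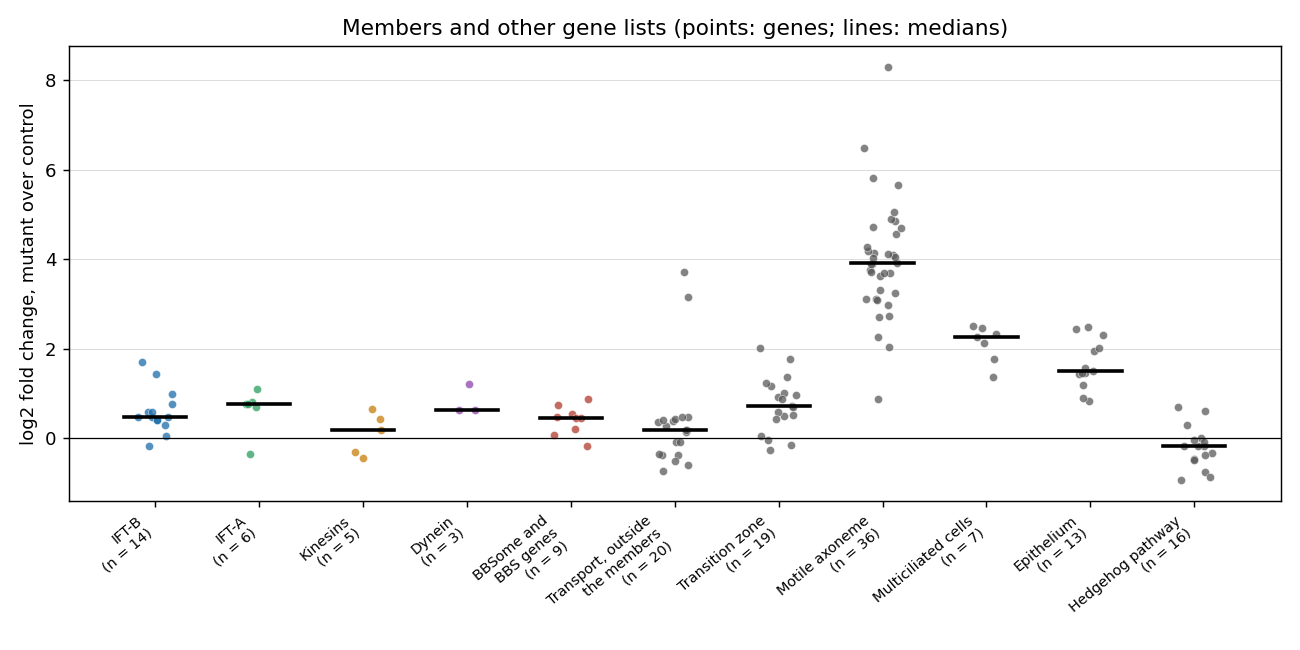
Log2 fold change, mutant over control, of every tested gene in the 5 member groups and in 6 other lists, with the median of each as a line. The member groups have medians from 0.19 to 0.77, the motile axoneme 3.91, multiciliated cell markers 2.26 and epithelial genes 1.5.

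**Figure D4:**
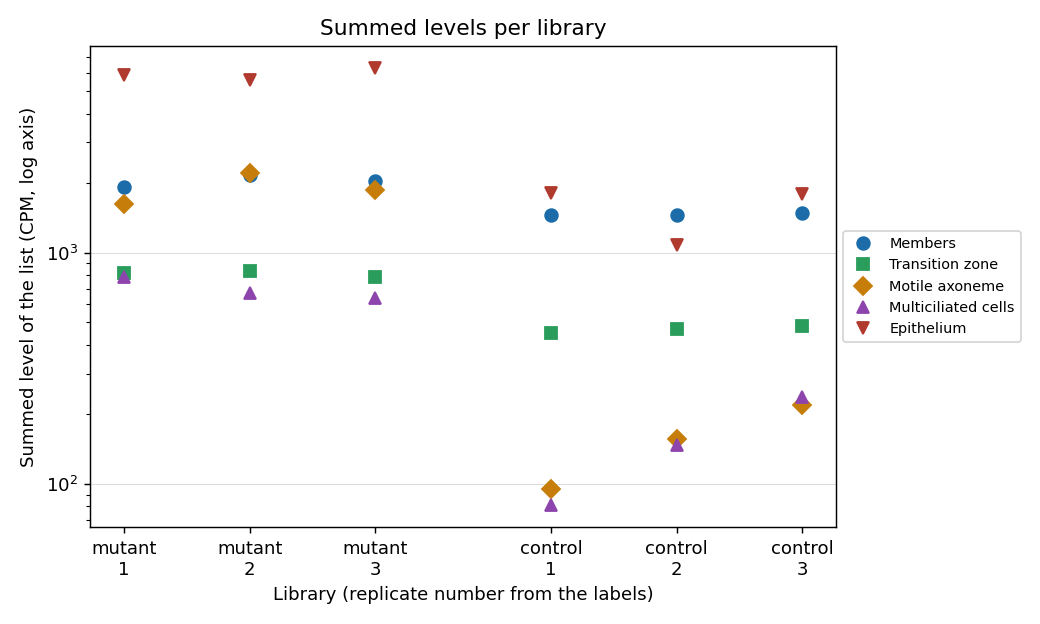
Summed level of 5 gene lists in each library (CPM, log axis), mutant libraries on the left and control libraries on the right. The member sum lies between 1920 and 2180 CPM in the mutants and between 1450 and 1480 CPM in the controls, while the motile axoneme sum in the controls is 95.2 to 220 CPM.

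The hedgehog pathway, which depends on primary cilia, showed more falls than rises in these libraries. Over all genes tested, 24.1% were called higher and 21.7% lower. Of 16 genes of the pathway, 2 rose, 6 fell and 8 did not pass, with a median log2 fold change of -0.17. After the uncentred GC and length correction 1 was higher and 11 lower, and 1 was higher without mutant replicate 2 or control replicate 3. Gli1, a direct target of the pathway, had 77, 88 and 92.2 CPM in the mutants, against 126, 179 and 163 CPM in the controls (-0.86, SE 0.14, adjusted p = 0.00231). Foxf1 fell by 0.94 on the log2 scale (SE 0.1), whereas the coreceptor gene Boc rose by 0.61 (SE 0.07).

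Some markers of other cell types also differed between the groups, where 24.1% of all tested genes were called higher and 21.7% lower. Macrophage genes rose in 7 of 8 cases. Of 5 airway secretory genes, 3 were tested, and these 3 were called higher. Among them, Sftpc had only 4 counts over the controls and so passed the filter through the mutants, and the groups of Bpifa1 overlapped. The airway count was 1 without mutant replicate 2 or without mutant replicate 3. It was also 1 with limma-voom, the test against a 1.5-fold change or the Y-linked covariate. Lower in the mutants were 5 of 6 skeletal muscle genes, 5 of 5 osteoblast genes, 3 of 5 red blood cell genes, 3 of 9 palatal mesenchyme genes and 4 of 7 neuron and glia genes. The skeletal muscle genes were near the floor in the mutants, with a sum of 1.56, 1.52 and 1.84 CPM, against 46.8, 4.33 and 14.3 CPM in the controls. With limma-voom 1 skeletal muscle and 3 osteoblast genes were called lower. In the test against a 1.5-fold change the counts were 3 and 2, and with the Y-linked covariate 6 and 2. Without mutant replicate 2 only 2 skeletal muscle and 2 osteoblast genes were called lower, without mutant replicate 3 the counts were 2 and 3, and for osteoblasts the count was 3 without mutant replicate 1, 2 without control replicate 2 and 3 without control replicate 3. None of 5 endothelial genes was called by edgeR, DESeq2 or limma-voom, and none had an unadjusted p under 0.05, but edgeR called 2 higher without mutant replicate 1 and 1 with the replicate block, and of 8 olfactory and nasal genes 2 rose and 1 fell.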

How the data were processed

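RNA from dissected palate was sequenced in 3 mutant and 3 control libraries. The authors deposited 1 table of raw counts per gene symbol for each library. Per the submitters' processing notes, HISAT2 and StringTie were used and both mm9 and mm10 are named; the sources used here do not give the counting program, its strand setting or the annotation. Without a known strand setting, reads from a gene and an overlapping antisense gene cannot be told apart.

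The deposited counts were tested in edgeR 4.0.16 under R 4.3.3 (filterByExpr with a minimum count of 10, TMM scaling, quasi-likelihood F test, no covariate). P-values were adjusted by the Benjamini-Hochberg method over all 16604 genes tested of 23420, with a threshold of 0.05. The SE of a log2 fold change was its size divided by the square root of F. CPM values are TMM-scaled, and RPKM divides them by the kilobases of merged exons in GENCODE M21 (GRCm38), which held 98.4% of the symbols. The method was run on simulated data in which few genes were changed. That setting does not cover data where 45.8% of genes are called, nor the even counts of mutant replicate 1. Every member was named, with values per library for the 4 smallest p-values in each role group and for members against their group's direction; genes of other lists were named by smallest p, at most 4 a list, plus Foxj1, Shox2 and Nkx2-5. Outside this rule and with their values known, Ttc30a1, 1110002L01Rik and Cetn4 were named as a paralog or overlapping genes of members. Rabl5 was likewise named as the older symbol of an IFT gene, and Mkks and Bbip1 as further chaperonin-like or BBSome genes. Dynlrb1, Dynlrb2, Dynll1 and Tctex1d2 were named in the same way as further dynein chains. Members and lists were chosen with earlier results of these data known. Alternatives were other scalings, filters and tools (DESeq2 1.42.0, limma-voom 3.58.1), a test against a 1.5-fold change, a replicate block, a covariate for Y-linked genes, a correction for GC content and length, and each library left out. Replicate numbers are not said to pair the libraries. Same-numbered deviations from the group mean correlated at 0.081, 0.082 and 0.02. Differently numbered libraries were not compared in this way, so these values cannot settle whether the libraries were paired.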

Additional observations from a re-analysis of the deposited data

How the results depend on the processing

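The count of members called higher, 27, stayed between 22 and 29 under all alternatives except the test against a 1.5-fold change, which called 8 higher and 0 lower. Those 8 were Bbs5, Dync2h1, Ift122, Ift140, Ift88, Traf3ip1, Ttc30b and Wdr19, and each was called higher under all 19 alternatives. With single libraries left out the count was 24 to 28. The count called lower, 3, was less stable: it was 1 with scaling by library size only, 5 after the uncentred GC and length correction, and 1 to 3 with single libraries left out, the lowest being without mutant replicate 1 or without mutant replicate 3. With the replicate block, a pairing that the labels do not state, 26 members were called higher and 1 lower. The level of Y-linked genes (log2 of summed CPM) was 7.64, 7.93 and 7.7 in the mutants, against 7.59, 5.22 and 6.47 in the controls. With this level as a covariate, 23 members were called higher and 2 lower. Over all genes the covariate gave 2842 higher and 2421 lower. The uncentred correction, chosen after seeing the data, moved the median of all genes to -0.22 and the share of higher among all calls to 32.1%, against 52.6%; the member median then was 0.32, which is 0.54 above that of all genes. Over all alternatives that difference was 0.46 to 0.59. Over all genes the 1.5-fold test called 1967 higher and 505 lower, against 3999 and 3607.

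Some small fold changes turned sign. Under the uncentred correction Bbs10 was -0.16, Ift57 -0.19, Cluap1 -0.05 and Kif3a -0.05, and with the Y-linked covariate Bbs10 was -0.10. With single libraries left out Ift57 ran from -0.09 (without mutant replicate 2) to 0.24 (without mutant replicate 1), with -0.02 without mutant replicate 3 and -0.05 without control replicate 1. The cause was not tested. Genotype and depth coincide in these libraries.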

Other observations

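Some balances between members differed between the groups within every library. Per kilobase of exon, the ratio of Ift88 to Ift20 was 0.47, 0.5 and 0.43 in the mutants, against 0.22, 0.19 and 0.21 in the controls. The ratio of Dync2h1, the return motor, to Kif3a, the outward motor, was 0.24, 0.28 and 0.25 per kilobase in the mutants, against 0.15, 0.11 and 0.12 in the controls. Both pairs were picked with their values known, and neither ratio was tested.

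Cetn4, a centrin gene that shares 1.31% of the Bbs12 exon bases on the opposite strand, had 10.5, 24.9 and 25.4 CPM in the mutants, against 2.63, 3.54 and 4.45 CPM in the controls. It rose by 2.52 on the log2 scale (SE 0.37, edgeR adjusted p = 0.0018), while Bbs12 did not pass (-0.18, SE 0.12).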
